A study of Homo sapiens with 15 samples.

Results

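The E2F transcription factors and their DP partners were followed in HCT116 cells, a human colorectal cancer line of epithelial origin, by poly(A) RNA sequencing. The members were chosen by symbol (E2F1 to E2F8, TFDP1 and TFDP2) and matched to the Ensembl identifiers of the deposited table, which gave 10 of its 60664 genes. Values are TPM, the share of a library's transcripts that a gene takes once its length is allowed for, so that genes may be compared within a library. A gene was tested if 3 or more of the 15 libraries held it at 1 TPM or above, which all 10 members and 14899 genes in all did. All cells were labelled wild type (WT), and no group carried an engineered allele. AE, TE and SE cells received 0.0154 mg/mL of an extract of oil production waste products, the pulp and wastewater of olive mills, from Apulia, Tuscany and Sicily respectively. HTyr cells received 0.0154 mg/mL of hydroxytyrosol, a phenol of the olive. All 4 treatments lasted 72 h and were compared with untreated cells, for which the labels name no vehicle. Each group held 3 libraries, called biological replicates in the labels, which do not say whether these were separate cultures, so p-values measure only the spread between these libraries. A single cell line was sequenced.

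The sample descriptions were followed for TE and SE, because the bracketed codes in the titles of those samples name the other region. If the codes were right, every TE and SE value given here would change places. The libraries AE 1, TE 3, SE 1 and HTyr 3 stood apart from their groups on the first component of the residuals, which held 21.6% of the residual variance, and the calls and adjusted p-values that cross 0.05 without them are given beside the results. Of 8 epithelial markers 7 reached the filter, and VIL1 was near 0. Their summed level was 4438 to 4464 TPM in the untreated libraries and 2439 to 3357 TPM in the treated ones, and KRT8, KRT18 and KRT19 held most of it. In the mean of the 4 treatments 2 of the 7 fell, KRT18 by 0.79 and KRT19 by 0.88 on the log2 scale, and 5 were not called, among them EPCAM at -0.06 and CDX2 at 0.19. Of 12 markers of immune, stromal and endothelial cells only CD68 and COL1A1 reached the filter, COL1A2 and CDH5 were listed at 0 in every library, and the summed level was 22.7 to 25.6 TPM untreated and 6.53 to 14.9 TPM treated. CD68, which held 16.8 TPM of it in untreated cells, fell by 2.03 on the log2 scale in the mean of the 4 treatments. Transcripts of the mitochondrial genome made up 15.6 to 21.5% of the TPM of a library, and those of cytosolic ribosomal proteins 26.9 to 29.3% in untreated and 19.9 to 25.7% in treated libraries, which did not overlap, with SE at 19.9 to 22.6%. The part of these differences in the results below was not tested. In bulk RNA, a larger share of cells in one phase of the cell cycle and more RNA per cell cannot be told apart.

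E2F proteins switch on the genes that a cell needs to copy its DNA, and most of them bind promoters as dimers with a DP protein. In G1, the retinoblastoma protein RB and its relatives hold the E2F proteins in check until cyclin-dependent kinases phosphorylate them. E2F1, E2F2 and E2F3 are known mainly as activators. E2F4 and E2F5 are known to work mostly as repressors with the RB relatives p107 and p130, E2F6 represses with Polycomb proteins and without RB, and E2F7 and E2F8 repress E2F targets without a DP partner. Several of these genes are known to be E2F targets themselves, and TFDP1 lies on a chromosome arm that is often gained in colorectal cancer.

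Promoters are shown first, since E2F proteins are known to act on the promoters of their own family. The sequences come from the RefSeq promoter table on GRCh38.p14, in which 8 of the 10 members had an entry, with 11 annotated start sites. E2F5 and E2F8 had none. The window ran from 250 bases before to 50 bases after each start, and both strands were searched for the E2F element in 4 spellings, namely TTGGCGC and TTGCCGC as well as TTCGCGC and TTCCCGC. Below are the bases before the first annotated start of 4 members that rose with every treatment (E2F1, E2F2, E2F7 and TFDP1) and of 2 that passed no 1.5-fold threshold (E2F3 and E2F4), 5′ to 3′ on the strand of the gene, with E2F elements in capitals. They lie on GRCh38.p14 at chr20:33686386-33686635 (minus strand) for E2F1, chr1:23531234-23531483 (minus) for E2F2, chr12:77065570-77065819 (minus) for E2F7, chr13:113584503-113584720 (plus) for TFDP1, chr6:20401629-20401878 (plus) for E2F3 and chr16:67191905-67192154 (plus) for E2F4. The TFDP1 sequence holds 218 bases, since it stops at the first annotated base of the gene.
E2F1: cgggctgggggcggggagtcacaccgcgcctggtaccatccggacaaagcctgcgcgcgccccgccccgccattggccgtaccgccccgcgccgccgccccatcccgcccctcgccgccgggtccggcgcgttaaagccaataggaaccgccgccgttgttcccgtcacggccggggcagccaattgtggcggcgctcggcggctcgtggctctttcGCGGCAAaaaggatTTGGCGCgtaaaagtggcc
E2F2: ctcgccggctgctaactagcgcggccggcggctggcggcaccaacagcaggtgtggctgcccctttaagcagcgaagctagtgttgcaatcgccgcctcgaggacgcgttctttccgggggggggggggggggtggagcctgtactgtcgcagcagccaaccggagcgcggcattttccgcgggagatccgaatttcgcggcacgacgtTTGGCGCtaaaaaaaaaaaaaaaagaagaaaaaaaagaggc
E2F7: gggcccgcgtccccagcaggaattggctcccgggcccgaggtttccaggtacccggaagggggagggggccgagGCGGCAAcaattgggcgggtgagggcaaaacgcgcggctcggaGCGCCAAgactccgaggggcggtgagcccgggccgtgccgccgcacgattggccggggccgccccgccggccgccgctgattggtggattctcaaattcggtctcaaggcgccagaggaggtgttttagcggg
TFDP1: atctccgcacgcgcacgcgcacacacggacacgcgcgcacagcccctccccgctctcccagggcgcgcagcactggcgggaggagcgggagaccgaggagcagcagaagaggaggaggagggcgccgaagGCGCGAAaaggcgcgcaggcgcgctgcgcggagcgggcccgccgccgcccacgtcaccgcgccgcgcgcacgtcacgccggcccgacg
E2F3: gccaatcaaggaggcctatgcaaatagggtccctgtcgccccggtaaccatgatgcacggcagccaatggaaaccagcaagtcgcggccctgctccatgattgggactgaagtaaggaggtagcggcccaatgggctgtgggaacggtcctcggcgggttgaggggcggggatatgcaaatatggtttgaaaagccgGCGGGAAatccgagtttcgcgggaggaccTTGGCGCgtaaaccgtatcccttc
E2F4: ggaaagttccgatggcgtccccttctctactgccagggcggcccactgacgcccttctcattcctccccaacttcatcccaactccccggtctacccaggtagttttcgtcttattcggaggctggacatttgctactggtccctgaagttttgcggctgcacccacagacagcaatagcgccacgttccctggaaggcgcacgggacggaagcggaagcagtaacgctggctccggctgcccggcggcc

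The E2F1 window held an element starting 33 bases before the start on the minus strand and another 19 bases before it on the plus strand. The E2F2 window held 1, starting 41 bases before the start. E2F7 held 2, at 176 and 133 bases, and TFDP1 held 1, at 120 bases. The TFDP1 distance is counted from the RefSeq start, which lies downstream of the end of the printed sequence. The first start of E2F3 held 2 elements as well, at 53 and 24 bases, and the E2F6 window held 1 that began 15 bases after the start. The windows of E2F4, of TFDP2 and of the second start of E2F3 held none. Of all 35116 promoter windows, 13.0% held at least 1 of these spellings. A match says that the letters are there and not that a factor binds, and the letters did not separate the members that rose from E2F3. The CCAAT box, an element of many cell-cycle promoters, was found in 34.6% of all windows and in those of E2F1, E2F3, E2F7 and TFDP2.

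**Figure D1:**
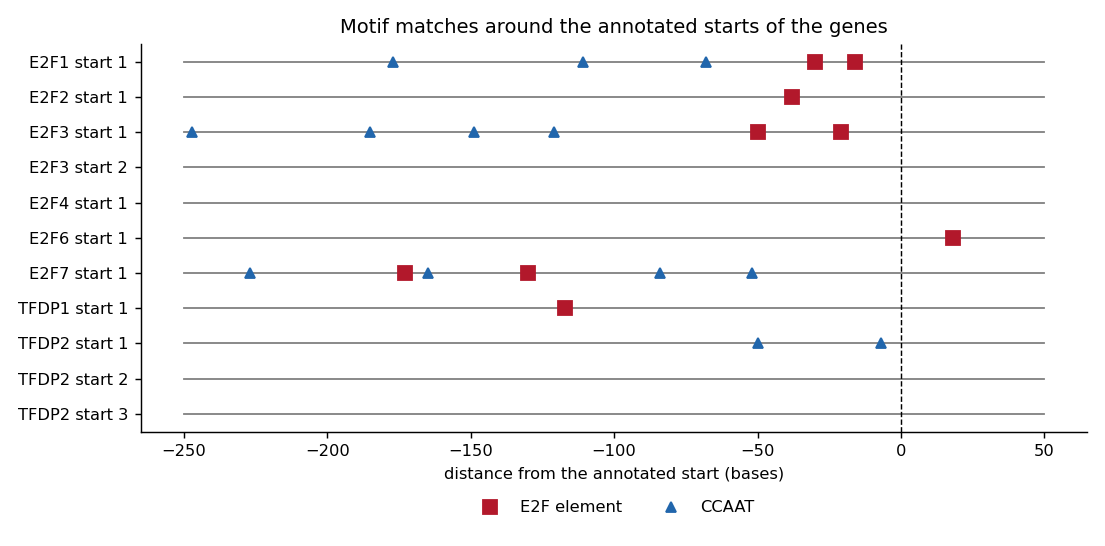
Matches to the E2F element (squares) and to CCAAT (triangles) on either strand are plotted by distance from the annotated start in bases, with 1 line for each of 11 start sites of 8 genes. The squares of E2F1, E2F2 and the first start of E2F3 lie within 53 bases before the start, and E2F4 and TFDP2 have none.

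In untreated cells E2F4 had the highest mean level, 71.4 TPM ± 5.98 (SD, n = 3), followed by TFDP1 at 61.9 ± 5.98, and the libraries of these neighbours overlapped. TFDP2 followed at 44.1 ± 6.08 TPM, E2F6 at 24.7 ± 0.296, E2F5 at 16.9 ± 2.50 and E2F3 at 16.1 ± 0.850, and the libraries of E2F5 and E2F3 overlapped. The lowest were E2F1 at 5.81 ± 0.139 TPM, E2F7 at 4.18 ± 0.557, E2F8 at 3.15 ± 0.278 and E2F2 at 1.53 ± 0.308. Among the E2F genes the repressors E2F4, E2F6 and E2F5 thus ranked first, and the 4 lowest levels were those of the activators E2F1 and E2F2 and of both atypical repressors. With SE the order was TFDP1 (125 ± 9.24), E2F4 (88.2 ± 5.09), TFDP2 (35.8 ± 7.88), E2F6 (29.0 ± 1.52), E2F3 (21.5 ± 1.17), E2F1 (16.3 ± 0.910), E2F7 (10.8 ± 0.667), E2F8 (9.84 ± 1.30), E2F2 (9.04 ± 0.289) and E2F5 (8.56 ± 0.864). There the libraries of TFDP2 and E2F6 overlapped, as did those of E2F7 and E2F8, of E2F8 and E2F2, and of E2F2 and E2F5. E2F5 moved from rank 5 of 10 to rank 10, and TFDP1 stood above E2F4 in all 12 treated libraries.

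**Figure D2:**
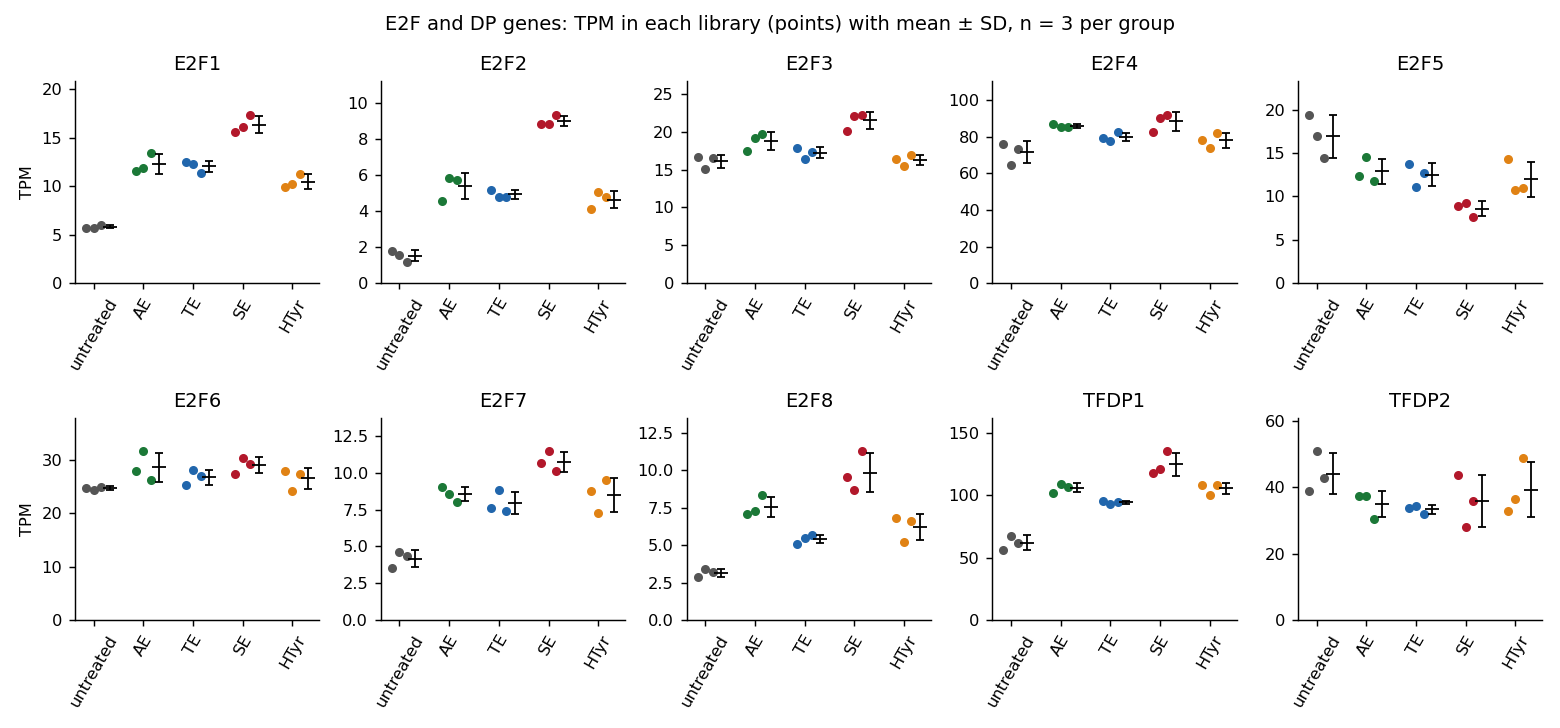
TPM of each of the 10 genes in each library (points, 3 per group) is shown beside the group mean ± SD. The treated points of E2F1, E2F2, E2F7, E2F8 and TFDP1 all lie above the untreated ones, those of E2F5 with SE lie lowest, and those of E2F3, E2F4, E2F6 and TFDP2 overlap the untreated ones in at least 1 group.

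Differences against untreated cells were tested with limma on log2(TPM + 0.5) over all 14899 genes, a scale that understates the change of low genes. A gene was called when its Benjamini-Hochberg adjusted p was under 0.05 and its change was past 1.5-fold. With each treatment the same 5 of the 10 members rose: E2F1, E2F2, E2F7, E2F8 and TFDP1. Of all genes tested 10.7% rose with AE, 7.46% after TE, 17.0% after SE and 7.80% after HTyr, and 4.66% rose with all 4. E2F5 fell with SE, where 11.0% of all genes fell, and no member fell with AE (5.81% of all genes), TE (5.26%) or HTyr (8.45%), although E2F5 had an adjusted p under 0.05 in each with all libraries. At any fold, the adjusted p was under 0.05 for 8 members in AE, 6 in TE, 9 in SE and 6 in HTyr cells, beside 39.8%, 34.0%, 52.0% and 39.4% of all genes. The median log2 change of the 10 members was 0.52 (AE), 0.39 (TE), 0.71 (SE) and 0.45 (HTyr), beside 0.09, 0.05, 0.09 and -0.04 over all genes. The 4 comparisons share the same 3 untreated libraries, so that they are not independent of each other.

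E2F1, the activator best known for binding RB, stood at 5.72, 5.74 and 5.97 TPM in the untreated libraries. The AE libraries held 11.61, 11.83 and 13.46 TPM, the TE libraries 12.48, 12.28 and 11.37, the SE libraries 15.60, 16.04 and 17.35, and the HTyr libraries 9.88, 10.24 and 11.29. All 12 treated libraries lay above the 3 untreated ones, which was so for 15.3% of all genes, and the SE libraries lay above all others. The log2 change was 1.02 (AE), 0.99 (TE), 1.41 (SE) and 0.80 (HTyr), each with a standard error of 0.080, and the adjusted p (limma) lay between 7.50e-09 and 6.17e-06.

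E2F2, a second activator, was the member with the largest change. It stood at 1.81, 1.58 and 1.20 TPM in the untreated libraries. With AE it stood at 4.58, 5.88 and 5.73 TPM, with TE at 5.21, 4.81 and 4.80, with SE at 8.87, 8.87 and 9.37, and in the HTyr libraries at 4.12, 5.07 and 4.77. The untreated and treated libraries did not overlap, and those of SE lay above all others. The log2 change was 1.54 (AE), 1.43 (TE), 2.24 (SE) and 1.35 (HTyr) (standard error 0.13), with adjusted p (limma) from 8.49e-09 to 3.86e-06. At these low levels the pseudocount matters: over all alternatives the SE change lay between 1.99 and 2.50. E2F3, the third activator, ranged from 15.09 to 16.61 TPM untreated and from 15.50 to 22.22 TPM treated. Its log2 change was 0.41 with SE (adjusted p = 0.000304, limma) and 0.22 with AE (adjusted p = 0.0269, but 0.178 at a change of 0.13 under median-ratio scaling), under 1.5-fold in both, and it was 0.10 with TE and 0.02 with HTyr (adjusted p = 0.334 and 0.886). The 3 SE libraries of E2F3 lay above the 12 others.

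E2F7 and E2F8, the atypical repressors that are known to limit E2F1, rose beside it. E2F7 stood at 3.56, 4.64 and 4.34 TPM untreated. The AE libraries held 9.05, 8.58 and 8.05 TPM, the TE libraries 7.61, 8.83 and 7.40, the SE libraries 10.70, 11.46 and 10.13, and the HTyr libraries 8.77, 7.25 and 9.51. Its log2 change was 0.96, 0.86, 1.27 and 0.94 in that order (standard error 0.12), with adjusted p (limma) from 7.27e-07 to 9.29e-05. The lowest treated library, at 7.25 TPM, lay well above the highest untreated one, at 4.64.

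E2F8 stood at 2.85, 3.40 and 3.20 TPM untreated. With AE it stood at 7.07, 7.30 and 8.33 TPM, with TE at 5.09, 5.47 and 5.66, with SE at 9.56, 8.71 and 11.26, and in the HTyr libraries at 6.78, 5.19 and 6.59. All treated libraries lay above the untreated ones, and TE had the lowest treated mean, 5.41 TPM. The log2 change was 1.14, 0.70, 1.5 and 0.87 (standard error 0.12), with adjusted p (limma) from 2.16e-07 to 0.000631. The gene lies at chr11:19224063-19241620 on the minus strand and overlaps CSRP3-AS1 on the other strand, which reached at most 0.280 TPM.

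TFDP1 encodes DP1, the usual dimer partner of the E2F proteins. It stood at 55.86, 67.82 and 61.99 TPM untreated. The AE libraries held 102.08, 109.41 and 107.02 TPM, the TE libraries 95.59, 93.37 and 94.90, the SE libraries 117.81, 121.47 and 135.32, and the HTyr libraries 108.19, 100.67 and 108.61. Every treated library lay above every untreated one. The log2 change was 0.78, 0.61, 1.01 and 0.77 (standard error 0.071), with adjusted p (limma) from 5.31e-08 to 2.41e-05. The TE change lay close to 1.5-fold and was no longer called at 0.57 under median-ratio scaling, 0.56 under quantile normalization, 0.54 without untreated replicate 1 and 0.52 with the trend on GC content and transcript length removed. Its 3 processed pseudogenes reached at most 0.25 TPM, so that few reads were assigned to them.

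TFDP2, the gene of the other DP partner, did not rise. It stood at 38.80, 50.72 and 42.64 TPM untreated. With AE it stood at 37.26, 37.29 and 30.52 TPM, with TE at 33.61, 34.40 and 31.76, with SE at 43.61, 27.86 and 35.89, and in the HTyr libraries at 32.66, 36.45 and 48.63. The AE and TE libraries lay below the untreated ones (48.9% and 46.7% of all genes did not overlap there, in either direction), while SE 1 and HTyr 3, which stood apart from their groups, overlapped them. The log2 change was -0.32, -0.39, -0.31 and -0.18 (standard error 0.16), with adjusted p (limma) of 0.138, 0.0835, 0.133 and 0.429. Without the 4 libraries that stood apart it was -0.46 with SE (adjusted p = 0.0221) and -0.34 with HTyr (adjusted p = 0.0947), still under 1.5-fold. Over 28 alternatives the adjusted p (limma) was under 0.05 in 4 with SE and in 1 with TE. Among those with SE were median-ratio scaling (-0.42, adjusted p = 0.0474) and quantile normalization (-0.43, adjusted p = 0.0418). The SE change lay between -0.46 and -0.14 over all of them. The ratio of TFDP1 to TFDP2 was 1.41 ± 0.0637 (SD, n = 3) untreated, 3.06 ± 0.399 (AE), 2.85 ± 0.137 (TE), 3.61 ± 0.841 (SE) and 2.77 ± 0.540 (HTyr). Its highest untreated value was 1.45 and its lowest treated value 2.23.

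E2F5, a partner of p130 and p107, was the one member that fell past the thresholds. It stood at 19.40, 16.90 and 14.41 TPM untreated. The AE libraries held 12.39, 14.52 and 11.73 TPM, the TE libraries 13.71, 11.12 and 12.73, the SE libraries 8.87, 9.22 and 7.58, and the HTyr libraries 14.32, 10.73 and 10.95. The SE libraries lay below all 12 others, which was so for 5.27% of all genes, and AE 2 alone of the treated libraries overlapped the untreated ones. The log2 change was -0.94 with SE (standard error 0.14, adjusted p = 6.01e-05, limma), -0.37 with AE (adjusted p = 0.0427), -0.41 with TE (adjusted p = 0.0316) and -0.48 with HTyr (adjusted p = 0.0132). The changes with AE, TE and HTyr were less firm than that with SE, with adjusted p of 0.152, 0.0996 and 0.0923 without the 4 libraries that stood apart. The HTyr change passed 1.5-fold at -0.59 without untreated replicate 3 and at -0.61 without HTyr replicate 1. E2F5 lies at chr8:85177154-85217158 on the plus strand, where it overlaps RBIS on the other strand, a gene at 135 to 208 TPM. The library kit keeps the strand, but the sources used here do not give the strand setting of the counting. RBIS was highest in the SE libraries, where E2F5 was lowest, and its part in the E2F5 values was not tested.

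E2F4 and E2F6, the remaining repressors, passed no 1.5-fold threshold. E2F4 ranged from 64.69 to 76.16 TPM untreated and from 73.64 to 91.88 TPM treated, and its log2 change was 0.27 with AE and 0.31 with SE (adjusted p = 0.00564 and 0.00153, limma), 0.16 with TE and 0.13 with HTyr (adjusted p = 0.0778 and 0.146). The SE change of E2F4 was 0.13 (adjusted p = 0.106) under quantile normalization. E2F6 ranged from 24.37 to 24.95 TPM untreated and from 24.22 to 31.55 TPM treated. Its log2 change lay between 0.10 and 0.22, with an adjusted p under 0.05 for SE alone (0.0272), and this small change fell to 0.06 (adjusted p = 0.528) in the lowest of the alternatives. Pseudogenes named after E2F3, E2F4 and E2F6 were all at or below 1.07 TPM.

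**Figure D3:**
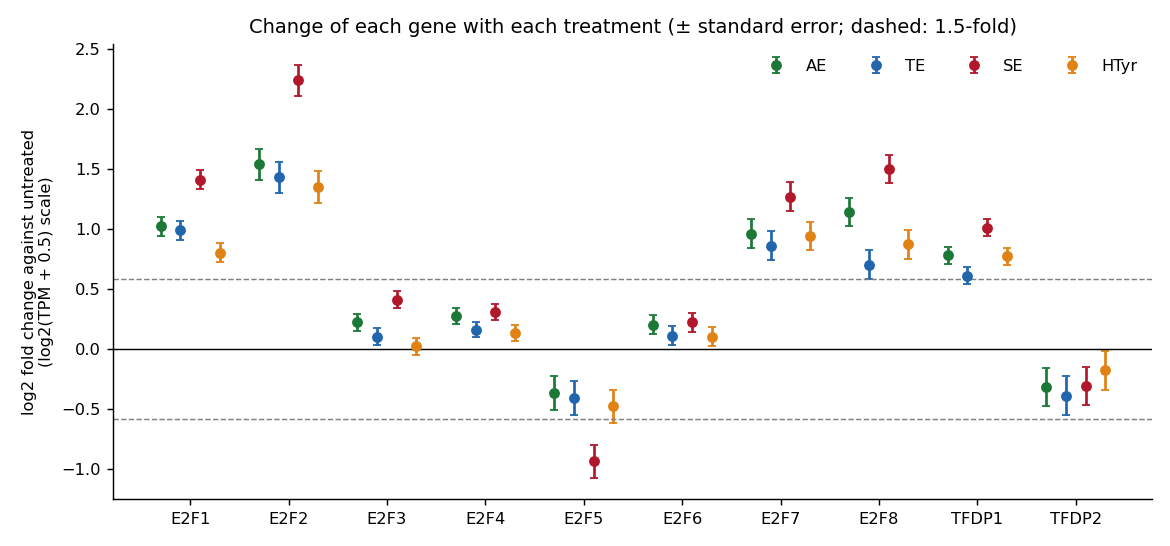
The log2 fold change against untreated cells (points, ± standard error) is plotted for each gene and treatment, with dashed lines at 1.5-fold. E2F1, E2F2, E2F7, E2F8 and TFDP1 lie above the upper line with all 4 treatments, and E2F5 crosses the lower line with SE.

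The mix of E2F transcripts shifted with these changes. E2F1 to E2F3 made up 16.3% ± 0.255 (SD, n = 3) of the summed TPM of E2F1 to E2F8 untreated, 20.3% ± 1.43 (AE), 20.5% ± 0.772 (TE), 24.2% ± 0.381 (SE) and 19.3% ± 1.03 (HTyr). E2F7 and E2F8 made up 5.13% ± 0.828 untreated and 8.97% ± 0.304, 8.02% ± 0.569, 10.7% ± 0.409 and 9.02% ± 0.719 with the treatments in the same order. E2F4 to E2F6 went from 78.6% ± 1.06 to 70.8% ± 1.54, 71.4% ± 0.805, 65.1% ± 0.735 and 71.6% ± 0.695, although E2F4 itself was not lower in any group mean. E2F4 to E2F6 were the largest class in every group. The summed level of all 8 E2F genes was 144 ± 7.23 TPM untreated, 179.9 ± 3.80 (AE), 166 ± 1.82 (TE), 193 ± 8.49 (SE) and 162 ± 9.34 (HTyr). The shares are given as a description, with no test.

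**Figure D4:**
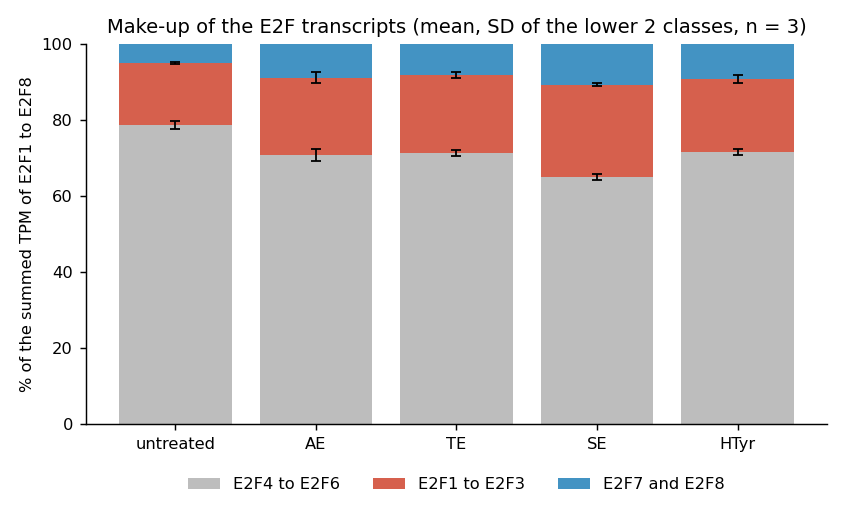
Bars, which start at 0, show the percent of the summed TPM of E2F1 to E2F8 held by E2F4 to E2F6, by E2F1 to E2F3 and by E2F7 and E2F8 in each group (mean of 3 libraries). Error bars at the upper edges of the E2F4 to E2F6 and E2F1 to E2F3 classes show their SD, and none is drawn for E2F7 and E2F8. The E2F4 to E2F6 class is 78.6% untreated and 65.1% with SE.

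The treatments were then compared with each other. SE stood apart from the other 3: its libraries lay above the 12 others for 6 members (E2F1, E2F2, E2F3, E2F7, E2F8 and TFDP1), which was so for 12.4% of all genes. E2F2 was higher with SE than with AE by 0.70 on the log2 scale (95% interval 0.42 to 0.98, adjusted p = 0.002, limma), than with TE by 0.81 (0.53 to 1.09, adjusted p = 0.000421) and than with HTyr by 0.89 (0.61 to 1.17, adjusted p = 0.000222). E2F8 was higher with SE than with TE by 0.80 (0.54 to 1.06, adjusted p = 0.00028) and than with HTyr by 0.63 (0.37 to 0.89, adjusted p = 0.00174). E2F1 was higher with SE than with HTyr by 0.62 (0.45 to 0.79, adjusted p = 9.88e-05). These calls made 1 member higher against AE, 2 against TE and 3 against HTyr, beside 1.94%, 4.70% and 4.97% of all genes.

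Several of these differences lay close to the 1.5-fold line. E2F2 against AE was 0.61 (adjusted p = 0.0588) without AE 1, TE 3, SE 1 and HTyr 3. Against HTyr, E2F1 was 0.49 and E2F8 0.50 under median-ratio scaling, 0.49 and 0.53 under quantile normalization, and 0.58 and 0.53 without SE replicate 3, so that neither was called in those fits. E2F1 was also lost at 0.58 without HTyr replicate 1, and E2F8 at 0.52 without HTyr replicate 2 and at 0.46 with the GC and length trend removed. Over all genes the median difference between SE and HTyr was 0.13, and median-ratio scaling moved it by -0.14, so that the difference of E2F1 and E2F8 from the median gene was smaller than the printed one. E2F5 was lower with SE than with AE by -0.56, than with TE by -0.52 and than with HTyr by -0.46 (adjusted p = 0.012, 0.0119 and 0.0231), under 1.5-fold in each. Without the 4 libraries that stood apart the adjusted p was 0.0792, 0.0851 and 0.0726, and without SE replicate 3 it was 0.0532, 0.0519 and 0.0885. With the GC and length trend removed all 3 passed 1.5-fold, and without HTyr replicate 1 the difference from HTyr was -0.33 (adjusted p = 0.102). No member was lower and called, beside 2.78%, 3.66% and 2.38% of all genes. TFDP1 was higher with SE than with TE by 0.40 (adjusted p = 0.000983), with an adjusted p under 0.05 in all 28 alternatives. Its differences from AE and HTyr, 0.23 and 0.24 (adjusted p = 0.0379 and 0.0235), had an adjusted p over 0.05 in 13 and 8 of them, with 0.148 and 0.051 without the 4 libraries. Under quantile normalization they were 0.16 and 0.09 (adjusted p = 0.165 and 0.453). E2F7 differed from TE by 0.42 (adjusted p = 0.0173), and by 0.37 (adjusted p = 0.13) without the 4 libraries. At any fold, 4 members passed against AE, 7 against TE and 6 against HTyr, beside 17.5%, 26.4% and 28.1% of all genes.

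Among AE, TE and HTyr no member passed in any of the 3 pairs, where 0.0873% (AE against TE), 1.34% (AE against HTyr) and 0.705% (TE against HTyr) of all genes did. At any fold the adjusted p (limma) was under 0.05 for 0.235%, 9.12% and 3.29% of all genes and for 0 members. The 30 differences lay between -0.22 and 0.45, and their 95% intervals reached from -0.57 to 0.71, so that the widest of them reached past 1.5-fold. The widest gap was E2F8, higher with AE than with TE by 0.45 (0.19 to 0.71), with an adjusted p (limma) of 0.164 within that comparison and of 0.0256 over all genes and all 6 pairs of treatments together. The AE libraries of E2F8 held 7.07 to 8.33 TPM and the TE libraries 5.09 to 5.66 TPM.

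The genes that control E2F proteins were followed by lists, described by counts in the mean of the 4 treatments, in which 10.4% of all genes rose, 7.43% fell and the median log2 change was 0.05. Of the 3 RB family genes 1 rose, with a median of 0.37. RBL1, the gene of p107, went from 3.80 TPM to 7.45, 5.85, 10.2 and 5.18 with AE, TE, SE and HTyr (log2 change 0.82 ± 0.14, the standard error, adjusted p = 0.000195, limma). RB1 went from 12.7 to 22.4 TPM with SE and was 0.37 in the mean, under 1.5-fold, and RBL2, the gene of p130, was 0.15 (adjusted p = 0.123). Of 7 subunits of the MuvB core and its partners, which form the DREAM repressor with p130 and the activators of mitotic genes with B-MYB and FOXM1, 3 rose and none fell, with a median of 0.49. MYBL2, the gene of B-MYB, rose by 1.39 ± 0.070 and FOXM1 by 1.24 ± 0.070 (adjusted p = 4.67e-09 and 1.05e-08), while RBBP4 was 0.49, under 1.5-fold.

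Of 7 tested G1 cyclins and kinases, which release E2F from RB, 4 rose and none fell, with a median of 0.66. CCNE2 went from 5.33 TPM to 16.0, 14.6, 24.1 and 12.3 (log2 change 1.52 ± 0.12), CCNE1 rose by 0.95 ± 0.078 and their kinase CDK2 by 0.89 ± 0.070, with adjusted p (limma) of 3.05e-07, 3.22e-07 and 2.15e-07. Of 7 inhibitors of these kinases 1 rose, with a median of 0.03: CDKN2C, which blocks CDK4 and CDK6, by 0.90 ± 0.13 from 1.73 TPM untreated. CDKN1A, the gene of p21, went from 258 TPM to 151, 174, 175 and 221, a mean log2 change of -0.53 that was under 1.5-fold, and it fell with AE by 0.77. CDKN1B was 0.25 in the mean. Of 3 ubiquitin ligase subunits that mark E2F proteins for breakdown, SKP2 rose by 0.93 ± 0.085 and CCNF by 1.18 ± 0.063 (adjusted p = 9.06e-07 and 6.99e-09), and FZR1 was 0.09 (adjusted p = 0.617).

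Genes known as E2F targets in S phase, in repair and in G2 and mitosis were followed next. All 35 S-phase genes rose in the mean, with a median of 1.25, as did all 11 repair genes (median 0.95) and all 15 genes of G2 and mitosis (median 1.06). With single treatments the S-phase counts were 35 (AE), 28 (TE), 35 (SE) and 28 (HTyr), with medians of 1.12, 0.97, 1.75 and 0.98. Of all genes 10.7% (AE), 7.46% (TE), 17.0% (SE) and 7.80% (HTyr) rose, with medians of 0.09, 0.05, 0.09 and -0.04. Of the repair genes 11 rose with AE, 9 after TE, 11 after SE and 7 after HTyr, and of those of G2 and mitosis 15, 11, 15 and 13. None of these genes fell. ASF1B, a histone chaperone, rose by 1.90 ± 0.061, RRM2, a subunit of ribonucleotide reductase, by 1.82 ± 0.056 and GINS2, a part of the replicative helicase, by 1.51 ± 0.059, with adjusted p (limma) of 9.62e-11, 7.33e-11 and 7.59e-10. Of the repair genes, FANCA, of the Fanconi pathway, rose by 0.92 ± 0.063 (adjusted p = 6.14e-08). The mitotic cyclin CCNB1 went from 52.0 TPM to 159, 118, 238 and 167 (log2 change 1.66 ± 0.045, adjusted p = 2.41e-11), CCNA2 rose by 1.20 ± 0.062 and CCNB2 by 1.02 ± 0.050. The lists were chosen with earlier results of these data known, so that their direction is no independent evidence.

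Of 8 apoptosis genes 2 rose and none fell in the mean, with a median of 0.45: TP73, a p53 relative, by 0.85 ± 0.11 and BCL2L11, a BH3-only protein, by 0.68 ± 0.070 (adjusted p = 1.76e-05 and 2.68e-06, limma). With SE 5 of the 8 rose and 1 fell, with a median of 0.67. Of all genes 17.0% rose and 11.0% fell with SE, with a median of 0.09. The gene that fell, by 0.69, was BBC3 (PUMA), a BH3-only gene named after its values were seen. Of 10 partners of E2F6 in the Polycomb complex PRC1.6 only CBX3 rose, by 0.70 ± 0.056, with a list median of 0.03. PCGF6 was 0.37 and L3MBTL2 0.41, both under 1.5-fold. None of 5 germline genes known to be silenced by E2F6 reached the filter.

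**Figure D5:**
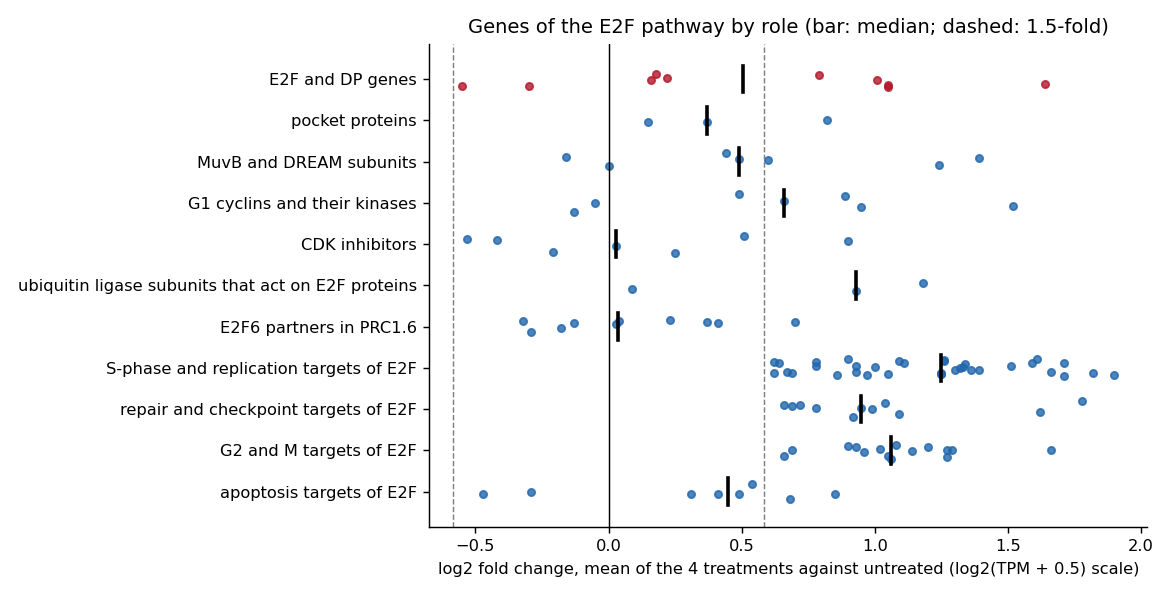
Each point is the log2 fold change of 1 gene in the mean of the 4 treatments against untreated cells, by list, with bars at the list medians and dashed lines at 1.5-fold. All points of the S-phase, repair and G2 and M lists lie to the right of the upper line. The medians of the CDK inhibitors (0.03) and of the PRC1.6 partners (0.03) lie near 0, with CDKN2C and CBX3 past the upper line.

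For each member called with at least 1 treatment, the genes with the most similar set of 4 log2 changes were sought among 10984 genes with a mean of at least 5 TPM in at least 1 group, by the root mean square difference. These 4 changes share the untreated libraries, so that the likeness is a description. The genes closest to E2F2 were 3 genes of DNA replication: MCM5 (0.056), FEN1 (0.082) and CDC45 (0.095), and no others lay within 0.1. MCM5 changed by 1.64, 1.41, 2.20 and 1.38 with AE, TE, SE and HTyr. This likeness depended on the pseudocount, and the root mean square difference of MCM5 from E2F2 was 0.202 at a pseudocount of 0.1. Closest to E2F8 were FANCI of the Fanconi pathway (0.056), the mitotic kinesin KIF23 (0.058) and the proliferation marker MKI67 (0.058), and closest to E2F7 were the helicase PIF1 (0.044), the spindle protein PSRC1 (0.048) and TRIM59 (0.051). Closest to E2F1 were the kinetochore gene NSL1 (0.034), RIBC2 (0.060) and LINC00326 (0.067), closest to TFDP1 were SNF8 (0.021), COPRS (0.038) and ACOT7 (0.049), and closest to E2F5 were the laminin gene LAMB2 (0.015), FBXW8 (0.030) and TFE3 (0.036). Within 0.1 lay 19 genes for E2F8, 35 for E2F7, 22 for E2F1, 72 for TFDP1 and 31 for E2F5. The 3 named for each of these are thus the nearest of many. Among the members themselves E2F7 lay nearest to E2F1 (0.126) and E2F8 next (0.169), while E2F2 lay at 0.605 from E2F1. The 22 genes within 0.1 of E2F1 lay closer to it than any member.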

How the data were processed

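The authors sequenced poly(A) RNA of 15 HCT116 libraries with a stranded kit, and the submitters' processing notes name STAR, RSEM and GRCh38 without versions. The deposited table holds TPM, as the authors computed them with RSEM against Ensembl release 104. TPM keep no sequencing depth, so that counting error is unknown here and no count model was run. Each of its 15 columns matched the column of the assigned library in the study's own table at all 1539 genes compared, within 0.005 TPM, and any other column at no more than 21, which does not settle the TE and SE labels. No library pair held identical values. Gene positions come from GENCODE 44 on GRCh38. Genes that reached 1 TPM in 3 or more libraries (14899 of 60664) were tested with limma 3.58.1 in R 4.3.3 on log2(TPM + 0.5), with 5 group means, a mean-variance trend and Benjamini-Hochberg adjustment over all genes tested. A gene was called at an adjusted p under 0.05 and a change past 1.5-fold. The procedure was tested on simulated data with known changes.

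The members, the 13 gene lists and the tests were chosen with earlier results of these data known. The genes named are all 10 members, the 3 genes with the smallest adjusted p of each list in the mean of the 4 treatments, the 3 genes most like each called member, and genes or pseudogenes that share a member's name or position. Some genes that this rule names are not reported here. Same-numbered replicates did not deviate together (correlations -0.21 to 0.26), so that no block was used in the tests reported first. Other pseudocounts, filters, scalings and left-out libraries were tried, and the removal of a GC and length trend and of the 4 libraries that stood apart was chosen after seeing the data.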

Additional observations from a re-analysis of the deposited data

How the results depend on the processing

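E2F1, E2F2, E2F7 and E2F8 stayed higher and called against untreated cells in all 28 alternatives of each treatment, and E2F5 stayed lower and called with SE. With the replicate block 5 members were higher against untreated cells with each treatment, as without it, and the block changed no call of a member. Same-numbered libraries did not deviate together (median correlation 0.00, and 4 of 15 libraries correlated best with their own number), so that the numbers were not taken as pairs. Leaving out each replicate in turn gave 0 to 1 lower members for HTyr and for the mean of the 4 treatments against untreated cells and for SE against AE and against TE, and 1 to 3 higher members for SE against HTyr. E2F5 passed 1.5-fold in the mean of the 4 treatments, giving 1 lower member, under median-ratio scaling (-0.60), without untreated replicate 3 (-0.66) and with the GC and length trend removed (-0.60). It did so for SE against AE with that trend removed (-0.62) and in 4 fits that left out AE 1, AE 3, SE 1 or SE 2 (-0.59 to -0.62), for SE against TE under median-ratio scaling (-0.59), without TE 2 (-0.60) and with the trend removed (-0.69), and for SE against HTyr under median-ratio scaling (-0.59) and with the trend removed (-0.74), 1 lower member each. These 3 differences of E2F5 had an adjusted p over 0.05 in 4, 4 and 5 alternatives, up to 0.0931, 0.0906 and 0.149. The higher members numbered 0 for SE against AE without the 4 libraries that stood apart, and 1 for SE against HTyr under median-ratio scaling and quantile normalization. The sign turned for E2F3 with HTyr, 0.02 in the first fit, at -0.03 without untreated replicate 2, at -0.01 without HTyr replicate 3 (leaving out single replicates gave -0.03 to 0.05) and at -0.01 without the 4 libraries, and for TFDP2 with HTyr at 0.04 with the trend removed. The cause was not tested.

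Over all genes, median-ratio scaling moved the share of calls that were higher from 64.9 to 51.1% with AE, from 60.7 to 49.5% with SE and from 67.6 to 36.5% for SE against HTyr. It moved that share from 56.2 to 43.0% for SE against TE, from 61.5 to 41.7% for AE against TE, from 67.0 to 29.7% for AE against HTyr and from 62.9 to 36.8% for TE against HTyr. Counts over all genes moved by over 1.5 times in the pairs with few calls: 13 for AE against TE, with 1 to 24 over the alternatives, 200 for AE against HTyr, with 25 to 244, and 105 for TE against HTyr, with 27 to 144. In the mean of the 4 treatments 2661 genes were called, and 1768 with a mean of at least 5 TPM required. A fit of only the groups compared was not run for the mean of the 4 treatments, which uses all groups. Without read counts the precision of the low members cannot be set by depth.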
